A study of Homo sapiens with 21 samples.

Results

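The genes examined here encode 4 orphan nuclear receptors of the NR2 subfamily, NR2F1, NR2F2, NR2F6 and NR2E1. They were taken by name from the table of gene counts, as 4 of its 61268 features, and all 4 passed the filter on low counts that left 19655 genes for testing. RNA was sequenced in H9 cells, an established human embryonic stem cell line. Every library came from one transgenic line, TRE3G-2xFLAG GSX2 WT, in which doxycycline switches on a tagged copy of the homeodomain factor GSX2 through the TRE3G promoter. The cells were brought towards progenitors like those of the lateral ganglionic eminence (LGE), the part of the ventral telencephalon from which striatal neurons arise. All groups therefore shared the transgene, a first phase with LDN193189, SB431542 and XAV939, a second with LDN193189 and SB431542 alone, and a last one with IWP2 and Activin A. The 7 groups of 3 libraries were day 10 without doxycycline, NoDox at 12, 24 and 48 h after day 10, and Dox at 12, 24 and 48 h. Dox cultures had 100 ng/mL doxycycline for the first 12 h only, so the 24 h and 48 h groups were collected after that exposure had ended. Cells lacking the transgene were not treated with the drug in these groups, so effects of doxycycline and of GSX2 cannot be told apart. The labels do not say whether replicates were separate cultures or whether the line is 1 clone, and the p-values cover only the spread from library to library, which may be technical.

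Orphan nuclear receptors share the layout of the hormone receptors, with a zinc finger domain that binds DNA and a ligand-binding domain, but their physiological ligands are unknown or disputed. NR2F1 (COUP-TFI) and NR2F2 (COUP-TFII) bind repeats of the AGGTCA half-site, mostly as repressors, and in the forebrain they are known for caudal area identity and for the caudal ganglionic eminence with its interneurons. NR2F6 (EAR2) is their broadly expressed relative, and NR2E1 (TLX) is a repressor that keeps neural stem cells dividing and helps set the border between pallium and subpallium.

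The stretch that codes for the first zinc finger shows how close the 4 genes are, and so whether their reads could be mixed up. In the lines that follow, taken from GENCODE 29 transcripts, capitals mark the codons of the P box, the short segment that reads the half-site.
NR2F1: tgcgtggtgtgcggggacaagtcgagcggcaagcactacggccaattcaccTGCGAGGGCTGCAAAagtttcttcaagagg
NR2F2: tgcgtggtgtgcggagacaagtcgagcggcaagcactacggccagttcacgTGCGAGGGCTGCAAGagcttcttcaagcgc
NR2F6: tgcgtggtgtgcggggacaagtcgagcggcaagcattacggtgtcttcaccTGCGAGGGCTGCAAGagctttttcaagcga
NR2E1: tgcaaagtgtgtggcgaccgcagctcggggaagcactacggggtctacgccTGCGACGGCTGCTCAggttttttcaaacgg
NR2F1 and NR2F2 differed at 7 of these 81 bases, NR2F1 and NR2F6 at 10, and NR2F2 and NR2F6 at 9. NR2E1 stood further off, with 28 differences from NR2F1, 31 from NR2F2 and 27 from NR2F6, and it carries a different P box. Over whole transcripts, no pair shared a run of 50 bases, and the longest shared run was 35 bases, between NR2F1 and NR2F2 and again between NR2F1 and NR2F6.

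The labels were checked first through the transgene. Its own row held 876 ± 114 CPM (SD, n = 3) in Dox at 12 h, against 0.227 ± 0.228 in NoDox at 12 h, where CPM is the read count scaled to library size, with edgeR's TMM factors. It was at 19.5 ± 5.80 CPM in Dox at 24 h and 0.934 ± 0.05 CPM in Dox at 48 h, so the induced RNA had largely gone by 48 h. The row for GSX2 itself read 288 ± 9.73 CPM in Dox at 12 h and 8.62 ± 1.80 CPM in NoDox at 12 h, and whether reads of the tagged copy are counted in it was not tested. Later the GSX2 row was lower in Dox than in NoDox, at 6.28 ± 2.73 against 12.7 ± 1.78 CPM at 24 h (log2 fold change -1.04, edgeR quasi-likelihood test, adjusted p = 0.00147) and 1.96 ± 0.0609 against 11.1 ± 1.92 CPM at 48 h (-2.49, adjusted p = 2.26e-05). Libraries held 14439089 to 33842591 counts. Replicate 3 of Dox at 12 h and replicate 1 of day 10 stood apart from the other replicates of their groups in a chi-square comparison of counts. Telencephalic progenitor markers such as SOX2 and PAX6 were present in every group, and all 9 were above 0. Of the 7 LGE markers, GSX1 was at 0 in Dox at 12 h, and 1 of the 7 is GSX2 itself. In these bulk libraries, fewer cells of a type and less RNA per cell cannot be told apart.

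Compared per kilobase of gene length, NR2F6 was the most abundant of the 4 receptors, with a mean of 38.2 RPKM (the TMM-scaled CPM per kilobase) over the 21 libraries. That level lay at the 95.2nd percentile of all genes tested. NR2E1 followed at 7.64 RPKM, NR2F2 at 7.10 and NR2F1 at 5.04, between the 60.6th and the 70.7th percentile. Raw counts ranged from 199 to 1290 for NR2F1, 536 to 1770 for NR2F2, 1409 to 3198 for NR2F6 and 237 to 1801 for NR2E1, so no value rested on a handful of reads. The spread between replicates beyond counting error was 15.6% for NR2F1 and 12.7% for NR2E1, against 7.56% for NR2F2 and 5.95% for NR2F6, as edgeR's coefficient of biological variation. Differences of the same size were therefore harder to call for the first pair.

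At the end of the 12 h exposure, NR2F1, NR2F2 and NR2E1 were 2.10-, 1.78- and 2.19-fold lower in Dox than in NoDox, while NR2F6 did not pass the test. At 24 h NR2F2 overlapped with NoDox again, NR2F1 was still lower, and NR2E1 was 3.86-fold lower. At 48 h no receptor passed the test.

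NR2F1, which restrains frontal identity in the cortex, read 12.1, 11.7 and 10.1 CPM in the Dox libraries at 12 h. The NoDox libraries at 12 h read 25.5, 17.8 and 28.4 CPM. All 3 Dox values lay below the lowest NoDox value, and Dox at 12 h was the lowest of the 7 groups. The log2 fold change was -1.07 ± 0.20 (SE; edgeR quasi-likelihood test, adjusted p = 0.00026), a 2.10-fold lower level. NR2F2, a marker of the caudal ganglionic eminence and also of venous endothelium, read 22.7, 26.7 and 27.3 CPM in Dox and 46.4, 42.5 and 47.3 CPM in NoDox. The groups were far apart, and each Dox library was also below every other library of the series. The log2 fold change was -0.83 ± 0.10 (adjusted p = 3.56e-08), a 1.78-fold lower level.

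NR2E1, the stem cell receptor, read 21.7, 14.7 and 14.1 CPM in Dox at 12 h and 43.7, 32.1 and 36.0 CPM in NoDox. The groups did not overlap, and replicate 1 was the highest of each. The log2 fold change was -1.13 ± 0.16 (adjusted p = 7.12e-06), a 2.19-fold lower level. NR2F6 read 90.7, 101 and 95.8 CPM in Dox against 105, 108 and 103 CPM in NoDox. The ranges lay close together without touching, and the log2 fold change of -0.14 ± 0.07 did not pass the test over all genes (edgeR quasi-likelihood test, adjusted p = 0.102). With library totals alone in place of TMM scaling its sign turned, to 0.04, and the median log2 fold change of all genes was then 0.187, against 0.01 with TMM scaling.

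Thus 3 of the 4 receptors were called at 12 h, all of them lower, where 39.7% of all genes tested were called, 19.8% higher and 19.9% lower. The replicates of the groups were wholly apart for 4 of 4 receptors and for 46.9% of all genes. Markers of other kinds of cell moved at the same time. Of 9 telencephalic progenitor markers 8 were lower and none higher, and their summed level was 2810 to 3139 CPM in Dox at 12 h against 7080 to 7112 CPM in NoDox. Of 7 LGE markers 5 were lower and 1, GSX2 itself, higher, with a median log2 fold change of -1.65. Of 8 postmitotic neuron markers 7 were lower and 1 higher, with sums of 914 to 1101 CPM against 1642 to 1914 CPM. Of 11 markers of mesenchyme and endothelium, tissues that also express NR2F1 and NR2F2, 9 could be tested, 2 were higher and 4 lower. Their sums overlapped, at 633 to 938 CPM against 785 to 867 CPM, and COL1A1 alone averaged 756 CPM in Dox and 781 CPM in NoDox. Of 8 eye field and hypothalamus markers, regions where NR2E1 is also found, 7 could be tested and all 7 were lower, with sums of 121 to 154 CPM against 299 to 332 CPM and NKX2-4 at 0 in both groups. Of 9 markers of the cortical hem and choroid plexus, 7 could be tested, 4 were lower and none higher, with sums of 13.3 to 16 CPM against 45.3 to 50.2 CPM. Of 7 neural crest markers, 5 could be tested, 2 were higher and 2 lower, with sums of 353 to 416 CPM against 794 to 842 CPM. The part of these shifts in the receptor values was not tested.

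**Figure D1:**
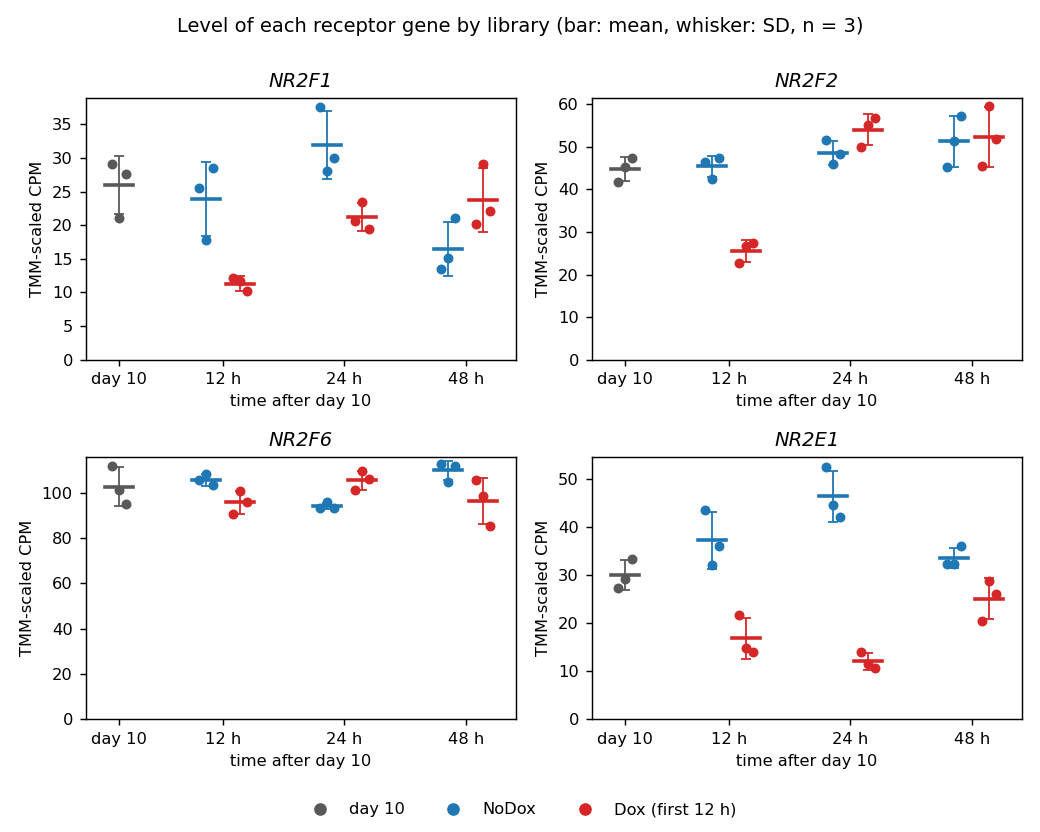
Level of each receptor gene in each library, in TMM-scaled CPM on axes that start at 0, against time after day 10, with points for libraries, bars for group means and whiskers for the SD (n = 3). Dox at 12 h is the lowest group for NR2F1 and NR2F2, Dox at 24 h is the lowest for NR2E1, and the 7 groups of NR2F6 run into each other.

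At 24 h, 12 h after the end of the exposure, the receptors had parted. NR2E1 read 13.9, 11.4 and 10.7 CPM in Dox and 52.5, 44.6 and 42.2 CPM in NoDox. The groups were far apart, and they held the lowest and the highest means of NR2E1 in the series. The log2 fold change was -1.95 ± 0.16 (edgeR quasi-likelihood test, adjusted p = 6.88e-09), a 3.86-fold lower level, larger in size than for 97.9% of all genes tested. NR2F1 read 20.6, 23.4 and 19.4 CPM in Dox against 37.6, 28.0 and 30.0 CPM in NoDox. The groups did not overlap, and the log2 fold change was -0.60 ± 0.18 (adjusted p = 0.0166).

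NR2F2 read 49.9, 55.2 and 56.8 CPM in Dox at 24 h and 51.6, 46.0 and 48.3 CPM in NoDox. The ranges overlapped, and the log2 fold change of 0.15 ± 0.09 (approximate 95% interval -0.04 to 0.33) did not pass the test (adjusted p = 0.22). NR2F6 read 101, 109 and 106 CPM in Dox against 93.2, 95.8 and 93.2 CPM in NoDox, higher in each Dox library, with a log2 fold change of 0.16 ± 0.07 that did not pass (adjusted p = 0.0627). Called were 2 of 4 receptors, both lower, against 33.9% of all genes, 17% higher and 16.9% lower, and 3 of 4 had groups wholly apart, against 51.9% of all genes.

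The call for NR2F1 at 24 h rested on single libraries. Without replicate 1 of Dox at 24 h its adjusted p was 0.053, without replicate 3 of Dox at 24 h 0.0676, and without replicate 1 of NoDox at 24 h 0.0952, with log2 fold changes of -0.58, -0.54 and -0.46. With no filter on low counts its adjusted p was 0.0617. Among the markers, 7 of 8 postmitotic neuron genes were lower and none higher at 24 h, with sums of 1422 to 1618 CPM in Dox against 2008 to 2303 CPM in NoDox. Progenitor sums were 6319 to 6591 CPM against 6642 to 6713 CPM, but single genes differed, with 2 higher and 4 lower of the 9 tested. Of 7 LGE markers 2 were higher and 4, GSX2 among them, lower, with a median log2 fold change of -0.53. Mesenchyme and endothelium sums were 959 to 1389 CPM against 438 to 502 CPM, with 3 genes higher and 3 lower of the 9 tested. COL1A1 alone averaged 1137 CPM in Dox and 426 CPM in NoDox, so these sums mostly show 1 gene. Eye field and hypothalamus sums were 446 to 459 CPM against 283 to 298 CPM, with 2 genes higher and 4 lower of the 7 tested, and NKX2-4 was at 0 in Dox. Neural crest sums were 752 to 896 CPM against 592 to 624 CPM, with 5 of 5 higher. The part of these markers in the receptor values was not tested.

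At 48 h the differences had shrunk. NR2E1 read 20.5, 28.8 and 26.0 CPM in Dox and 32.4, 32.3 and 36.0 CPM in NoDox. The groups still did not overlap, but the log2 fold change of -0.42 ± 0.16 did not pass the test (edgeR quasi-likelihood test, adjusted p = 0.0707). NR2F1 read 20.2, 29.1 and 22.1 CPM in Dox against 13.4, 15.1 and 21 CPM in NoDox, now on the higher side, with a log2 fold change of 0.53 ± 0.20 (adjusted p = 0.0734). Replicate 3 of NoDox at 48 h reached into the Dox range, and without it the log2 fold change was 0.74 (adjusted p = 0.0194).

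NR2F2 read 45.4, 59.7 and 51.8 CPM in Dox at 48 h and 45.3, 51.3 and 57.2 CPM in NoDox, overlapping widely, with a log2 fold change of 0.03 ± 0.09 (adjusted p = 0.868). NR2F6 read 106, 98.3 and 85.4 CPM in Dox against 113, 105 and 112 CPM in NoDox, overlapping through replicate 1 of Dox, with a log2 fold change of -0.19 ± 0.07 (adjusted p = 0.0594). None of the 4 was called by edgeR's quasi-likelihood test, and 3 had an unadjusted p below 0.05. The 48 h values of NR2F1, NR2F6 and NR2E1 lay close to the threshold, and by DESeq2's Wald test all 3 passed, with adjusted p of 0.0258, 0.0462 and 0.0404. NR2E1 also passed with library totals alone (0.0357), with no filter (0.0221) and when only the 2 groups were fitted (0.000873), and NR2F6 with library totals alone (0.00526). Among all genes 18.2% were called, 9.23% higher and 8.94% lower. The replicates were wholly apart for 1 of 4 receptors and for 36% of all genes. Progenitor marker sums were 10111 to 10656 CPM in Dox against 8585 to 9284 CPM in NoDox, with 3 of 9 genes higher and 0 lower. Neural crest sums were 740 to 758 against 512 to 554 CPM, with 3 of 5 higher and 0 lower. Cortical hem and choroid plexus sums were 16.8 to 19.9 against 26.7 to 34.1 CPM, with 1 higher and 2 lower of 7. Of 7 LGE markers 2 were higher and 3 lower. Neuron, mesenchyme and eye field sums overlapped. The markers' part in the receptor values was not tested.

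**Figure D2:**
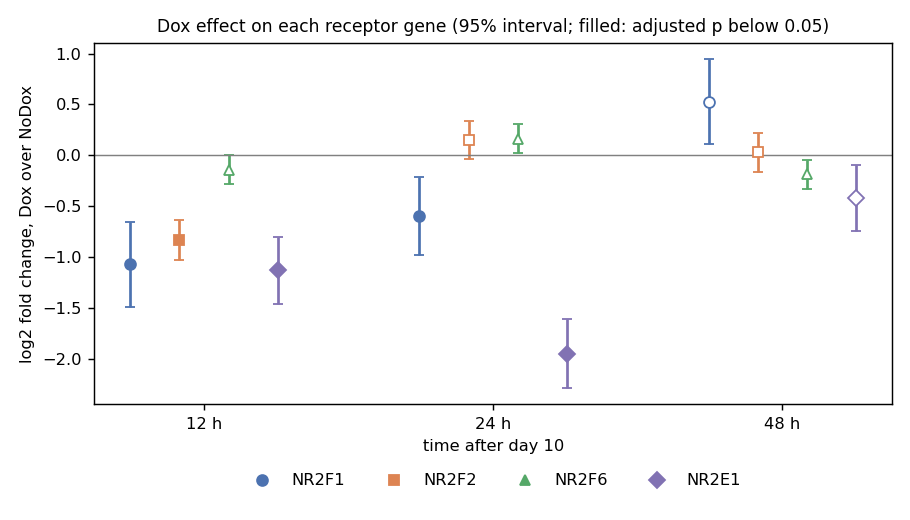
Log2 fold change of Dox over NoDox for each receptor gene at 12, 24 and 48 h, from the edgeR fit of all 21 libraries, with whiskers for the approximate 95% interval, not adjusted for the number of genes, and filled points where the adjusted p was below 0.05. NR2E1 is lowest at 24 h at -1.95, NR2F2 is filled only at 12 h, and NR2F6 stays between -0.19 and 0.16.

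Whether the Dox difference itself changed with time was tested within the same fit, as the difference between 2 log2 fold changes. From 12 to 24 h it moved up by 0.98 ± 0.13 for NR2F2 (edgeR quasi-likelihood test, adjusted p = 9.8e-07) and by 0.31 ± 0.10 for NR2F6 (adjusted p = 0.0159), and down for NR2E1, by -0.82 ± 0.22 (adjusted p = 0.00842). NR2F2 and NR2E1, lowered alike at 12 h, thus moved in opposite directions. For NR2F1 the change of 0.47 ± 0.27 did not pass (adjusted p = 0.204). The value of NR2F6 was 0.11 with library totals alone (adjusted p = 0.357). In this comparison 3 of 4 receptors were called, against 30.9% of all genes.

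From 24 to 48 h the Dox difference moved up for NR2E1, by 1.53 ± 0.22 (edgeR quasi-likelihood test, adjusted p = 4.26e-05), and for NR2F1, by 1.13 ± 0.27 (adjusted p = 0.00477). It moved down by 0.35 on the log2 scale for NR2F6, at -0.35 ± 0.10 (adjusted p = 0.00787). For NR2F2 it was -0.12 ± 0.13 and did not pass (adjusted p = 0.547). So 3 of 4 receptors were called, against 25.8% of all genes. Both tests use the 24 h libraries, so they are not independent of each other.

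The same values can be followed along each arm. Within Dox, NR2F2 rose from 25.6 ± 2.52 CPM at 12 h to 54.0 ± 3.64 CPM at 24 h, a log2 fold change of 1.08 ± 0.09 (edgeR quasi-likelihood test, adjusted p = 2.02e-10), and NR2F1 from 11.3 ± 1.04 to 21.1 ± 2.08 CPM, by 0.89 ± 0.20 (adjusted p = 0.00136). NR2E1 fell from 16.9 ± 4.25 to 12.0 ± 1.68 CPM, with a log2 fold change of -0.49 ± 0.17 (adjusted p = 0.0236). That fall rested on the high replicate 1 of Dox at 12 h. Without this library the value was -0.26 (adjusted p = 0.203), and without replicate 2 or 3 of Dox at 24 h the adjusted p was 0.0781 or 0.0914. NR2F6 was at 0.14 ± 0.07 (adjusted p = 0.103), so 3 of 4 receptors were called, against 42.6% of all genes. In this step 8 of 9 telencephalic progenitor markers were higher and none lower, with sums going from 2810 to 3139 CPM to 6319 to 6591 CPM, and 5 of 7 LGE markers were higher and 1, GSX2, lower. Of the 7 eye field and hypothalamus markers tested, 5 were higher and none lower, and of 8 postmitotic neuron markers 5 were higher and none lower. The part of these markers in the receptor values was not tested.

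From 24 to 48 h within Dox, NR2E1 rose to 25.1 ± 4.23 CPM, by 1.06 ± 0.17 on the log2 scale (edgeR quasi-likelihood test, adjusted p = 1.96e-05). It was the 1 receptor called of the 4, where 58.9% of all genes were called. The log2 fold changes of the others were 0.17 for NR2F1, -0.04 for NR2F2 and -0.13 for NR2F6, with adjusted p of 0.46, 0.701 and 0.112. With library totals alone NR2F6 passed too, at -0.29 (adjusted p = 0.000501).

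Without doxycycline the receptors also changed with time. Against day 10, where NR2F1 was at 26.0 ± 4.27, NR2F2 at 44.8 ± 2.78, NR2F6 at 102.6 ± 8.55 and NR2E1 at 30.0 ± 3.11 CPM, none of the 4 passed edgeR's quasi-likelihood test in NoDox at 12 h (0 of 4 at an unadjusted p below 0.05, and 0 by DESeq2's Wald test), while 31.8% of all genes were called. The log2 fold changes were -0.11 for NR2F1, 0.02 for NR2F2, 0.04 for NR2F6 and 0.31 ± 0.15 for NR2E1 (adjusted p = 0.137). At 24 h NR2E1 alone of the 4 was called, at 46.4 ± 5.37 CPM and 0.63 ± 0.15 above day 10 on the log2 scale (adjusted p = 0.00618), against 17.3% of all genes. The day 10 libraries read 27.4, 29.1 and 33.5 CPM, all below the lowest NoDox library at 24 h. In the same comparison 7 of 8 postmitotic neuron markers were higher and none lower, with sums of 2008 to 2303 CPM against 1458 to 1503 CPM, and 5 of 5 neural crest markers were lower, with sums of 592 to 624 CPM against 873 to 909 CPM. Their part in the value of NR2E1 was not tested.

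At 48 h NR2F1 alone was called against day 10, where 41.7% of all genes were. It had read 29.2, 21.1 and 27.7 CPM at day 10, and NoDox at 48 h had a mean of 16.5 ± 4.00 CPM, a log2 fold change of -0.65 ± 0.20 (edgeR quasi-likelihood test, adjusted p = 0.013). The highest NoDox library at 48 h, at 21 CPM, lay just under the lowest at day 10. The call was lost without replicate 1 or 3 of day 10 or replicate 1 or 2 of NoDox at 48 h, with log2 fold changes of -0.56, -0.59, -0.52 and -0.58 and adjusted p of 0.0535, 0.0532, 0.0688 and 0.0535. Without the 2 libraries that stood apart, a choice made after seeing the data, it was -0.56 (adjusted p = 0.0765).

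From 12 to 24 h within NoDox none of the 4 was called by edgeR's quasi-likelihood test (3 at an unadjusted p below 0.05), against 35.1% of all genes. The log2 fold changes were 0.42 for NR2F1, 0.10 for NR2F2, -0.17 for NR2F6 and 0.32 for NR2E1, with adjusted p of 0.0844, 0.421, 0.0576 and 0.0962. NR2F6 lay just short of the threshold, and DESeq2's Wald test called it at -0.18 (adjusted p = 0.0385). From 24 to 48 h 3 of 4 were called, against 41.4% of all genes. NR2F1 fell from 31.9 ± 5.04 to 16.5 ± 4.00 CPM, at -0.96 ± 0.19 (adjusted p = 0.000589), and NR2E1 from 46.4 ± 5.37 to 33.6 ± 2.13 CPM, at -0.47 ± 0.15 (adjusted p = 0.0155). NR2F6 rose from 94.1 ± 1.49 to 109.8 ± 4.36 CPM, at 0.22 ± 0.07 (adjusted p = 0.00999), though with library totals alone at 0.13 it did not pass (adjusted p = 0.121). The call for NR2E1 was lost without replicate 1 of NoDox at 24 h (adjusted p = 0.0811) or replicate 1 or 2 of NoDox at 48 h (0.0556 and 0.0577). NR2F2 kept to 48.6 ± 2.81 and 51.3 ± 5.94 CPM, with a log2 fold change of 0.08 (adjusted p = 0.535).

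Ordered by level, most neighbouring groups overlapped. For NR2F1 the order ran from NoDox at 24 h through day 10, NoDox at 12 h, Dox at 48 h, Dox at 24 h and NoDox at 48 h to Dox at 12 h, and only the last step separated groups without overlap. For NR2F2 the order ran from Dox at 24 h through Dox at 48 h and the NoDox groups, latest first, to day 10, and again only the last step, down to Dox at 12 h, was free of overlap. For NR2E1 all 3 NoDox groups and day 10 stood above Dox at 48 h, followed by Dox at 12 h and, after the only gap, Dox at 24 h. For NR2F6 all neighbours overlapped, from 109.8 CPM in NoDox at 48 h down to 94.1 CPM in NoDox at 24 h.

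Because TMM scaling cancels in a ratio within a library, the balance between the receptors was also compared as ratios of reads per kilobase. The ratio of NR2F1 to NR2F2 was 0.581 ± 0.0664 (SD, n = 3) in Dox at 24 h against 0.966 ± 0.0969 in NoDox, and 0.669 ± 0.0473 in Dox at 48 h against 0.472 ± 0.0618 in NoDox, without overlap either time. So NR2F1 was low relative to NR2F2 at 24 h and high at 48 h, while at 12 h, where both were lowered, the ratios overlapped at 0.662 ± 0.121 and 0.774 ± 0.139. The ratio of NR2E1 to NR2F2 was 0.387 ± 0.0824 in Dox at 24 h against 1.64 ± 0.125 in NoDox, and 0.823 ± 0.0440 at 48 h against 1.13 ± 0.0852. The ratio of NR2F6 to NR2F2 was 9.17 ± 0.600 in Dox at 12 h against 5.69 ± 0.463 in NoDox, and 4.77 ± 0.198 against 4.73 ± 0.336 at 24 h. NR2E1 to NR2F1 stood at 0.666 ± 0.111 against 1.70 ± 0.127 at 24 h and at 1.24 ± 0.119 against 2.43 ± 0.411 at 48 h. In the exact two-sided permutation test of these ratios, 7 of 12 comparisons reached p = 0.1, the smallest that 3 libraries against 3 can give, or 0.171 after Benjamini-Hochberg adjustment over the 12.

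**Figure D3:**
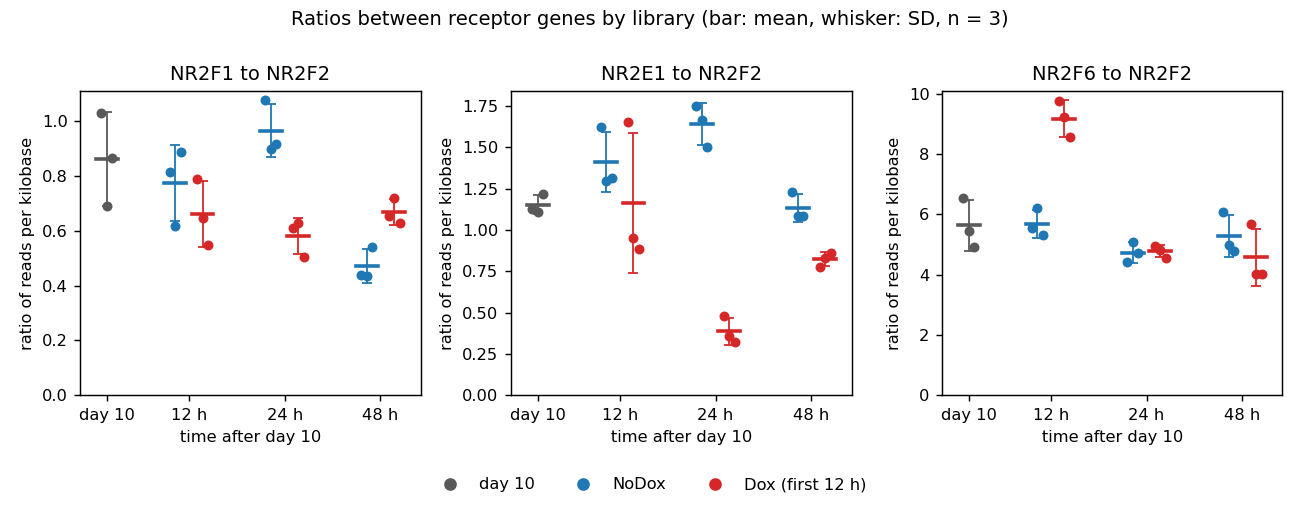
Ratios between receptor genes in each library, from reads per kilobase and so unaffected by library scaling, against time after day 10, with bars for means and whiskers for the SD (n = 3). NR2F1 to NR2F2 lies below NoDox at 24 h and above it at 48 h, NR2E1 to NR2F2 is lowest in Dox at 24 h at 0.387, and NR2F6 to NR2F2 is highest in Dox at 12 h at 9.17.

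Over the 21 libraries, log2 levels of NR2F1 and NR2F2 went together with a Pearson r of 0.68, NR2F1 and NR2E1 with 0.52, and NR2F2 and NR2E1 with 0.25. NR2F6 had r between -0.13 and 0.25 with the others. These are descriptions over libraries that share groups and the low values of Dox at 12 h. Among 13530 genes averaging 2 CPM or more, those most like NR2F2 over the 21 libraries were MIR34AHG (r = 0.95), NEFM and SEMA6D (0.93 each), and those most opposite were SLC41A2 (-0.91), TOR1AIP1 (-0.90) and NBN (-0.89). MIR34AHG read 18.4 ± 1.21 CPM in Dox at 12 h and 29.8 to 36.6 CPM as the mean of each other group, so it shared the single low group of NR2F2.

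For NR2E1 the likest genes were CNR1, ADGRL3 and PCSK1 (r = 0.94 each). CNR1, the cannabinoid receptor gene, read 0.822 ± 0.0659 CPM in Dox at 12 h, 0.936 ± 0.586 CPM in Dox at 24 h and 21.8 ± 2.84 CPM in NoDox at 24 h, low and high where NR2E1 was. The most opposite were FBLN2 (-0.94), EGFL7 (-0.93) and ANO9 (-0.93), and FBLN2, which codes for a matrix protein, read 40.5 ± 1.63 CPM in Dox at 24 h against 13.4 ± 0.403 CPM in NoDox. NR2F1 was most like ZC3H12C, FAHD2A (0.86 each) and KCNH8 (0.83), and most opposite to CARMIL2 (-0.87), MORC4 (-0.86) and CTSL (-0.85). For NR2F6 the closest was CARM1 at 0.76, with MAPKAPK2 and C1orf122 at 0.75, and the most opposite were ACADSB (-0.74), YTHDC2 (-0.73) and ZNF225 (-0.72), so its small movements were followed less closely by any other gene.

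NR2F1 lies on the plus strand at chr5:93583222-93594611 (hg38), and NR2F1-AS1, the antisense RNA gene that starts beside it, at chr5:93360779-93585649 on the minus strand. Their exons share 158 bases, 3.61% of the length of NR2F1. The libraries were made with a directional kit, but the strand setting of the counting is not given in the sources used here, so reads of those 158 bases cannot be assigned with certainty. NR2F1-AS1 read 5.16 ± 0.271 CPM in Dox and 5.02 ± 0.155 CPM in NoDox at 12 h, where NR2F1 fell 2.10-fold. Its log2 fold changes were 0.04, 0.06 and 0.29 at 12, 24 and 48 h, with adjusted p of 0.859, 0.815 and 0.3. Without doxycycline it was called lower at 48 h together with NR2F1, at -0.73 ± 0.17 against day 10 (edgeR quasi-likelihood test, adjusted p = 0.00113) and -0.62 ± 0.17 from 24 to 48 h (adjusted p = 0.00435). From 24 to 48 h within Dox it was called lower as well, at -0.39 ± 0.17 (adjusted p = 0.0471). NR2F2 (chr15:96325938-96340263, plus strand) shares no exon base with NR2F2-AS1, which read 0.400 to 1.30 CPM as group means and was not called in Dox against NoDox at any of the 3 times. Within Dox it was called higher from 12 to 24 h, at 1.57 ± 0.42 (edgeR quasi-likelihood test, adjusted p = 0.0035), where NR2F2 was at 1.08.

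NR2E1 lies at chr6:108166022-108188805 on the plus strand and NR2F6 at chr19:17231883-17245919 on the minus strand. Of the 11 antisense and neighbouring genes listed for the 4 receptors, 10 could be tested. At 12 h 5 were higher and 0 lower, against 19.8% and 19.9% of all genes. The median log2 fold change of the 10 was 0.30, against 0.01 for all genes. SNX3 and OSTM1, which flank NR2E1, were higher at 0.31 ± 0.07 (edgeR quasi-likelihood test, adjusted p = 0.00109) and 0.49 ± 0.10 (adjusted p = 0.000243) while NR2E1 was lower. OCEL1, near NR2F6, was at 0.85 ± 0.12 (adjusted p = 1.59e-06), though NR2F6 itself was not called. At 24 h 2 of the 10 were higher and 0 lower, against 33.9% of all genes called in either direction. At 48 h 0 passed edgeR's quasi-likelihood test, with 3 at an unadjusted p below 0.05, against 18.2% of all genes called.

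GSX2 is a homeodomain factor, and homeodomains read sequences with a TAAT core, so the start regions of the receptors that fell are shown for NR2F1 and NR2E1. They are the 250 bases before the RefSeq start (GRCh38.p14, plus strand), with TAAT on either strand in capitals, overlapping matches included.
NR2F1, chr5:93582972-93583221: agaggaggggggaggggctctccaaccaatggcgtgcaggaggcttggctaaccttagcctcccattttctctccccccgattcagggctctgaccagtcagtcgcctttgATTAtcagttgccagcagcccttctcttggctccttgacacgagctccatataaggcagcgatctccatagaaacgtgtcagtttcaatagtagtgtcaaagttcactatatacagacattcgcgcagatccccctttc
NR2E1, chr6:108165772-108166021: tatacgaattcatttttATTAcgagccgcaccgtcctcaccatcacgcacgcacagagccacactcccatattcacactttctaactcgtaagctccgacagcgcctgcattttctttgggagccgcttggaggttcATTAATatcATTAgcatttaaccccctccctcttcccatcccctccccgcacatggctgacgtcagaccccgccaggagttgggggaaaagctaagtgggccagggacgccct
In windows that run on to 50 bases after the start, NR2F1 held 1 TAAT and NR2E1 held 5, of which the fifth starts at base 43 after the start, past the printed stretch. Of 35116 RefSeq windows of 300 bases, 50.2% held a TAAT on either strand and 7.69% held 5 or more. No window was available at the first start of NR2F2, which also fell at 12 h, nor for NR2F6. A second NR2F1 start held 5 matches, a second NR2E1 start 2, and 2 inner starts of NR2F2 held 0 and 1. The NR2F2 window with 0 holds the coding stretch of the zinc finger shown above. None of these windows held TAATTA, found in 4.84% of all windows, a pair of TAAT cores on the same strand with 7 bases between them (0.863%) or AAGTCA, a half-site of NR2E1 (12.5%). AGGTCA, the half-site of the NR2F receptors (13.8% of all windows), occurred once, in the second NR2E1 window at base -48. These matches are descriptions of the letters and not of binding.

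Of the other NR2 genes tested, 1, 0 and 1 were called in Dox against NoDox at 12, 24 and 48 h. The share among all genes was 39.7%, 33.9% and 18.2%. Of 8 listed, 5 could be tested, among them the testicular receptors NR2C1 and NR2C2 and the retinoid X receptors, the partners of many nuclear receptors. RXRA was higher at 12 h by 0.19 ± 0.06 (edgeR quasi-likelihood test, adjusted p = 0.014), and NR2C1 at 48 h by 0.25 ± 0.07 (adjusted p = 0.0115). At each time 0 were lower, and at 24 h 0 of 5 were called by the same test, with 1 at an unadjusted p below 0.05. Within Dox 3 were called higher and 1 lower from 12 to 24 h, against 42.6% of all genes called. From 24 to 48 h 2 were higher and 1 lower, against 58.9% of all genes. NR2C2 was higher in both steps, at 0.40 ± 0.12 (adjusted p = 0.0124) and 0.48 ± 0.12 (adjusted p = 0.00222), and RXRA lower in both, at -0.23 and -0.22. RXRG was at 1.75 ± 0.62 from 12 to 24 h (adjusted p = 0.0233), with group means under 0.6 CPM. NR2E3, HNF4A and HNF4G did not pass the filter on low counts.

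Cofactors of these receptors went both ways. Of 16, all tested, 4 were higher and 5 lower at 12 h, 3 and 3 at 24 h, and 4 and 1 at 48 h, with medians of -0.03, 0.05 and 0.13. Of all genes, 39.7%, 33.9% and 18.2% were called in either direction at these times. BCL11A and BCL11B (CTIP1 and CTIP2), first described as partners of COUP-TF proteins, parted at 12 h. BCL11A read 4.43 ± 0.772 CPM in Dox against 8.18 ± 2.10 CPM in NoDox, at -0.87 ± 0.17 (edgeR quasi-likelihood test, adjusted p = 0.000149), and BCL11B 6.27 ± 0.409 against 3.02 ± 0.712 CPM, at 1.05 ± 0.16 (adjusted p = 2.64e-06). HDAC1, a histone deacetylase of corepressor complexes, was higher at 0.57 ± 0.05 (adjusted p = 2.28e-10). The demethylase KDM1A, with which NR2E1 works, was at -0.23 ± 0.05 at 12 h (adjusted p = 0.000772) and 0.26 ± 0.05 at 24 h (adjusted p = 0.000232). ZFPM2 (FOG2), a cofactor of NR2F2, was lower at all 3 times, by -1.57, -1.17 and -1.5, but its group means did not exceed 0.88 CPM.

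Of 14 genes described in other systems as controlled by these receptors, 13 could be tested. At 12 h 1 was higher and 8 lower (median -0.75), at 24 h 5 and 4 (median -0.26), and at 48 h 0 and 2 (median -0.25), where the median of all genes was within 0.01 of 0. Called in either direction were 39.7%, 33.9% and 18.2% of all genes. ANGPT1, the angiopoietin gene, read 0.162 ± 0.170 CPM in Dox at 12 h against 3.78 ± 0.473 CPM in NoDox, at -4.39 ± 0.33 (edgeR quasi-likelihood test, adjusted p = 6.52e-12). NRP1, a semaphorin and VEGF co-receptor, was at -2.55 ± 0.23 at 12 h and -1.71 ± 0.19 at 24 h (adjusted p = 2.44e-09 and 1.09e-07). GFAP, an astrocyte gene that NR2E1 represses in neural stem cells, was higher at 3.03 ± 0.34 at 12 h (adjusted p = 2.71e-08), from 0.323 to 2.7 CPM. WNT7A, which NR2E1 is described to activate, read 1.62 ± 0.919 CPM in Dox at 24 h against 11 ± 2.94 CPM in NoDox, at -2.76 ± 0.33 (adjusted p = 1.86e-06). At 12 h WNT7A did not pass (-0.64 ± 0.34, adjusted p = 0.151).

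Partners in the patterning of the telencephalon shifted strongly. Of 13, all tested, 0 were higher and 11 lower at 12 h, 6 and 5 at 24 h, and 5 and 3 at 48 h, with medians of -0.92, -0.06 and 0.05. The share of all genes called in either direction was 39.7%, 33.9% and 18.2%. EMX2, which with NR2F1 marks caudal cortex, read 9.54 ± 0.764 CPM in Dox at 12 h against 247 ± 20.1 CPM in NoDox, at -4.70 ± 0.11 (edgeR quasi-likelihood test, adjusted p = 6.75e-22), and was still lower at 24 h (-3.94) and 48 h (-1.38). The rostral signal FGF8, which opposes NR2F1 in the embryonic cortex, was lower at 12 h (-0.47 ± 0.12, adjusted p = 0.00271) and higher at 24 h, at 61.2 ± 1.74 CPM against 7.04 ± 1.05 CPM (3.13 ± 0.12, adjusted p = 3.97e-18). ETV4 and SPRY2, targets of FGF signalling, followed the same order, at -0.60 and -0.91 at 12 h and 3.18 and 2.66 at 24 h.

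Of 11 genes of the caudal ganglionic eminence and its interneurons, where NR2F2 is a defining factor, 9 could be tested. At 12 h 0 were higher and 5 lower (median -1.23), at 24 h 3 and 2 (median -0.12), and at 48 h 2 and 0 (median 0.02). Over all genes 39.7%, 33.9% and 18.2% were called in either direction. SCGN, the secretagogin gene, was lower at 12 h with NR2F2 (-2.13 ± 0.12, edgeR quasi-likelihood test, adjusted p = 3.73e-15) and higher at 24 h (0.39 ± 0.10, adjusted p = 0.00342). ERBB4, a neuregulin receptor of migrating interneurons, was lower at both times, at -1.23 ± 0.14 and -3.59 ± 0.17 (adjusted p = 2.44e-08 and 1.83e-16). SP8 and SP9, zinc finger factors of the same cells, were at -1.76 and -2.24 at 12 h, and SP8 is also counted among the patterning partners. HTR3A and VIP did not pass the filter on low counts.

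**Figure D4:**
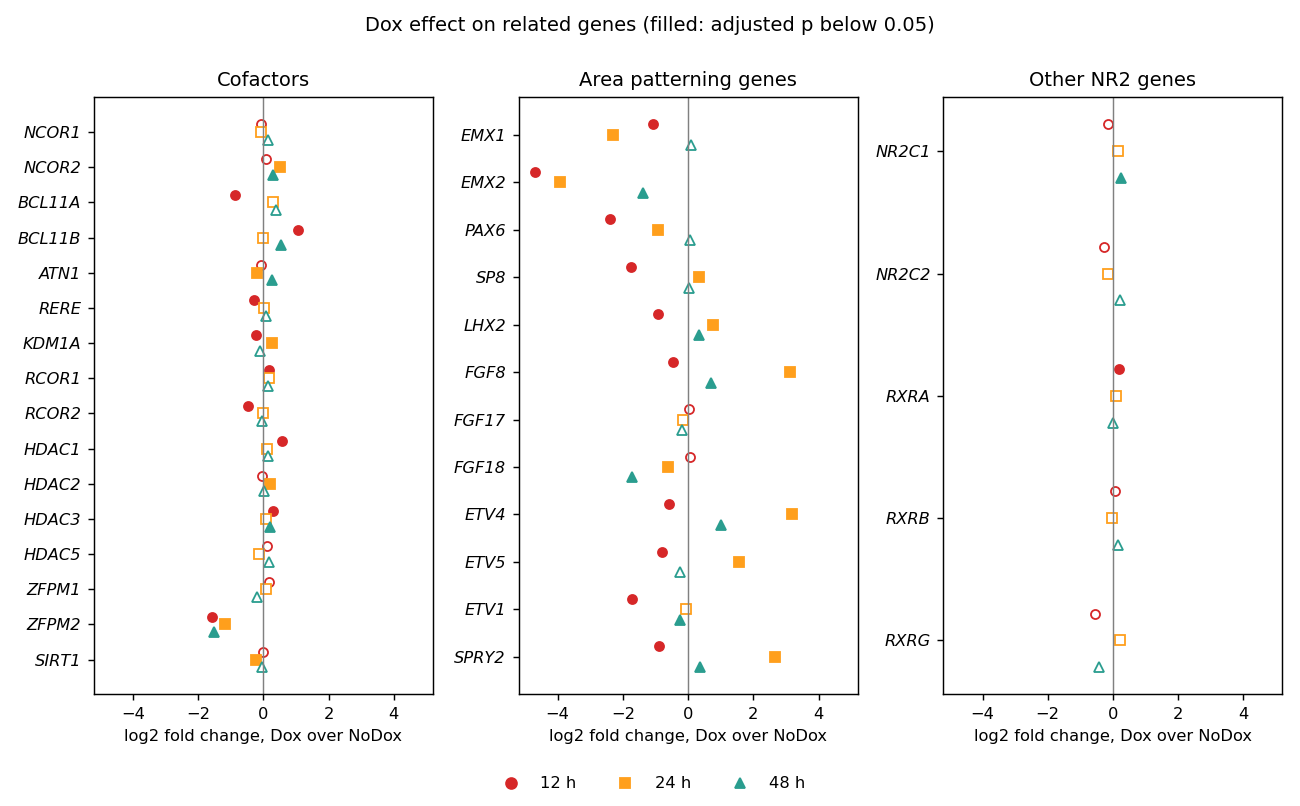
Log2 fold change of Dox over NoDox at 12, 24 and 48 h for cofactors, area patterning genes and other NR2 genes, 1 row per gene, filled where the edgeR adjusted p was below 0.05. At 12 h 10 of the 12 patterning genes drawn are filled and lower. SP8, LHX2, FGF8, ETV4, ETV5 and SPRY2 cross to the higher side at 24 h. The other NR2 genes run from -0.55 to 0.25.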

How the data were processed

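RNA was measured by poly-A RNA-seq in 21 libraries, 7 groups of 3 taken from the labels. The authors deposited raw counts for each gene, with hg38, STAR 2.7.9 and Subread 2.0.3 named in the submitters' processing notes. Which annotation and strand option were used is not given in the sources used here. Gene lengths in bases, another column the authors deposited, gave the values per kilobase. The deposited normalized values, unit signal, are by their values the count over 1 factor per sample, and they served in an alternative as log2(value + 1). DESeq2, without a version, is among the tools named in the submitters' processing notes.

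All 21 libraries were fitted together with edgeR 4.0.16 (R 4.3.3, limma 3.58.1) by the robust quasi-likelihood F test, with TMM scaling, filterByExpr and Benjamini-Hochberg adjustment over 19655 genes, and called at adjusted p below 0.05. The standard error is the log2 fold change over the square root of F, and it and the 95% interval are approximate. The fit was tested on simulated data. Alternatives were DESeq2 1.42.0 and its size factors, library totals alone, no filter, a filter of 1 CPM in 3 libraries, only the groups compared, the normalized values, a replicate block and each library left out. The members and lists were chosen with earlier results of these data known. Genes named beside the 4 receptors are any of the NR2, cofactor, antisense and neighbour lists, up to 4 of each other list with the largest changes past the threshold, and the 3 likest and 3 most opposite genes by Pearson r of log2 CPM with a prior count of 2. The values of 1 patterning gene, counted in its lists, are not reported here.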

Additional observations from a re-analysis of the deposited data

Results flagged for a closer look

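The Dox difference changed between times, by the test of that difference in the edgeR fit, in 6 cases. Between 12 and 24 h the change in log2 fold change was 0.98 for NR2F2, 0.31 for NR2F6 and -0.82 for NR2E1. Between 24 and 48 h it was 1.13 for NR2F1, -0.35 for NR2F6 and 1.53 for NR2E1. NR2E1 moved down and then up, NR2F6 up and then down, and the change from 24 to 48 h took NR2F1 from a lower to a higher mean in Dox than in NoDox. The 24 h libraries enter both changes.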

How the results depend on the processing

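Depth was not limiting, since the lowest count was 199. With 3 libraries a group, the calls near the threshold moved with the setting. The calls for NR2F1, NR2F2 and NR2E1 at 12 h and for NR2E1 at 24 h held under every alternative run. Same-numbered libraries deviated together weakly at most, with correlations of deviations from group means between -0.026 and 0.098. For replicate 1 all of these were positive, at 0.037 to 0.098. The fit with the replicate block, run for all 48 results, changed no call, with NR2F1 at 24 h, for example, at -0.59 (adjusted p = 0.0256).

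With library totals alone, the sign turned for NR2F6 in Dox against NoDox at 12 h (0.037), NR2F2 in Dox against NoDox at 48 h (-0.047), NR2F2 from 24 to 48 h in NoDox (-0.020) and NR2F6 from 12 to 24 h in Dox (-0.038). That scaling gave 7340 genes higher and 2213 lower in Dox at 12 h, against 3898 and 3912 with TMM. NR2F6 (-0.26) and NR2E1 (-0.50) at 48 h and NR2F6 from 24 to 48 h in Dox (-0.29) passed, while NR2F6 from 24 to 48 h in NoDox (0.13) and in the change of the Dox difference from 12 to 24 h (0.11) no longer did. With no filter NR2F1 at 24 h (-0.59) no longer passed and NR2E1 at 48 h (-0.43) did. With the stricter filter NR2F6 passed at 48 h (-0.19), from 12 to 24 h in NoDox (-0.17) and from 24 to 48 h in Dox (-0.16). When only the groups compared were fitted, NR2F2 at 24 h (0.15), NR2F6 at 24 h (0.17), at 48 h (-0.20) and from 12 to 24 h in NoDox (-0.18) and NR2E1 at 48 h (-0.43) passed. By DESeq2's Wald test NR2F1 (0.53), NR2F6 (-0.19) and NR2E1 (-0.42) at 48 h and NR2F6 from 12 to 24 h in NoDox (-0.18) passed. The last also passed with DESeq2's size factors (-0.18) and on the deposited normalized values (-0.18). Without the 2 libraries that stood apart, a setting added after seeing the data, NR2F2 in NoDox at 12 h against day 10 turned to -0.028, NR2F1 at 48 h against day 10 (-0.56) no longer passed and NR2F6 at 48 h against day 10 (0.16) did. The cause was not tested.

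With each replicate left out in turn, 307 of 336 values kept their direction and side of the threshold. For Dox against NoDox the range was -0.68 to -0.46 for NR2F1 at 24 h, and at 48 h 0.34 to 0.74 for NR2F1, -0.087 to 0.12 for NR2F2, -0.26 to -0.12 for NR2F6 and -0.54 to -0.30 for NR2E1. For NoDox at 12 h against day 10 it was -0.26 to 0.063 for NR2F1, -0.028 to 0.062 for NR2F2 and -0.011 to 0.11 for NR2F6. For NoDox at 48 h against day 10 it was -0.86 to -0.52 for NR2F1 and 0.11 to 0.27 for NR2F2. From 12 to 24 h in NoDox it was 0.25 to 0.57 for NR2F1 and 0.22 to 0.45 for NR2E1, and from 24 to 48 h -0.010 to 0.16 for NR2F2 and -0.53 to -0.37 for NR2E1. In Dox it was -0.61 to -0.26 for NR2E1 from 12 to 24 h, and from 24 to 48 h -0.028 to 0.26 for NR2F1, -0.17 to 0.026 for NR2F2 and -0.22 to -0.074 for NR2F6.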
